A study of Bos taurus and Cervus elaphus with 24 samples.

Results

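Blood gene expression was compared between Holstein-Friesian (HF) cattle and Polish Red (PR) cattle in the dry period. The comparison took the 8 arrays whose titles give Holstein-Friesian or Polish Red, the dry period and a subject number from 1 to 4, out of 24 arrays in all. The HF dry group is 4 Holstein-Friesian cattle and the PR dry group 4 Polish Red cattle; neither carries an engineered allele or received an agent, and the labels give no age, parity, feed or herd. The other 16 arrays hold the same 8 cattle at peak lactation and 4 deer in both states. Every group is an outbred set of 4 animals, so breed and anything else that the 4 animals of a breed share cannot be told apart. Each array set RNA from 1 animal, labelled with the red dye Cy5, against a reference pooled from 20 other cattle, labelled with the green dye Cy3, and each value below is the log2 ratio of animal to reference.

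The dry period is the rest between lactations, when the udder makes no milk and its tissue is renewed before calving. Holstein-Friesian is the main high-yielding dairy breed, and Polish Red is a native red-coated breed of lower yield kept under conservation programmes. Circulating white blood cells include neutrophils, which engulf bacteria, lymphocytes, which carry adaptive immunity, and monocytes, which become macrophages in tissue. The labels name the cells peripheral blood nuclear cells, while the protocol collected whole blood into tubes that fix RNA. Of 30 red cell genes tested, 26 were well above background on all 8 arrays. So were 26 of 27 neutrophil genes, 30 of 30 T cell genes and 18 of 20 platelet genes, against 12706 of all 13814 named genes tested. Only genes above background on at least 3 of 4 arrays of a group were tested, so these counts cannot show which cells were present. In bulk blood, fewer cells of a type and less RNA per cell cannot be told apart.

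The 8 arrays lay on 7 of the 10 slides. HF animals 1, 2, 3 and 4 were on slides F, G, H and I, and PR animals 1, 2, 3 and 4 on slides A, I, B and C, so slide I alone held both groups, as HF animal 4 and PR animal 2. On 7 of the 8 arrays the median Cy5 intensity was 108.5 to 207.5, while PR animal 1 had 2038 and 696 outlier spots against at most 67 on the others. The spike-in correlation in the file headers was 0.33 on that array, 0.37 and 0.40 on HF animals 2 and 3, and 0.899 or more on the other 5. Over the probes tested, PR animal 2 correlated with the 4 HF arrays at 0.44 to 0.60 and with the other PR arrays at 0.10 to 0.37, although its label is Polish Red. The correlations are descriptions across probes that share the arrays' normalization. Whether the slide or an exchanged label lay behind them was not tested, and every difference within slide I rests on the label of PR animal 2.

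Of 43653 probes, 32926 were well above background in Cy5 on at least 3 of 4 arrays of a group and were tested. The groups differed at 862 probes, 2.62% of those tested, by limma with Benjamini-Hochberg adjusted p under 0.05. Of these, 764 probes were higher in HF (2.32%) and 98 were lower (0.298%). The higher probes named 555 genes and the lower probes 85 genes, and 144 and 9 probes had no gene name. The median difference over the 862 was 0.64 for the higher and -0.48 for the lower set, against 0.01 over all probes tested. The 4 HF values lay wholly apart from the 4 PR values at 594 of the higher and 76 of the lower probes, where 9.02% of all probes tested did so. The number of calls moved with the arrays fitted: limma called 0 probes from the 8 arrays alone, where 5239 had an unadjusted p under 0.05. It called 438, 1, 1 and 267 probes without HF animals 1, 2, 3 and 4 in turn, and 115, 4187, 50 and 2 without PR animals 1, 2, 3 and 4.

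OAS1X headed the genes lower in HF by the size of the fitted difference. It encodes a 2',5'-oligoadenylate synthetase. These interferon-induced enzymes answer double-stranded RNA by making a short adenylate chain that switches on RNase L, which cuts viral and cellular RNA. The OAS1X probe read -1.23, -1.21, -1.13 and 1.02 in HF animals 1 to 4 and 1.38, 2.44, 3.22 and 2.47 in PR animals 1 to 4. All PR animals were above all HF animals, and HF animal 4 stood far from the other 3 of its breed. The probe was well above background on 4 of 4 PR arrays but on 1 of 4 HF arrays, so the HF values, and with them the size of the difference, rest on signal near background. The fitted difference was -3.02 ± 0.50 (log2 ± SE), with a limma adjusted p of 0.0151. On slide I the difference between HF animal 4 and PR animal 2 was -1.42, and from the scanner's own log ratios the fitted difference was -5.85. The call was lost without HF animal 2, HF animal 3 or PR animal 4 (adjusted p = 0.0978, 0.0539 and 0.0647), with differences of -2.83, -2.85 and -2.99.

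At peak lactation all PR animals were again above all HF animals, with -1.14, -0.95, -0.79 and 1.30 in HF and 3.29, 2.45, 3.07 and 2.62 in PR. HF animal 4 again stood apart from its breed, while PR animal 1 was the lowest of its breed in the dry period and the highest at lactation. The lactation difference was -3.25, with a limma adjusted p of 0.0518, and the breed difference did not differ detectably between the states (interaction adjusted p = 1.00, unadjusted p = 0.740). The animals are the same in both states, so the lactation values are repeat bleedings and not further animals.

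The array held 3 more probes for OAS1 genes, and their sequences are shown because members of this gene cluster are close copies. All lie on the minus strand of chromosome 17 in the coordinates of the files, whose build is UMD 3.1. The 60-base probes begin as follows, 5' to 3', with 30 bases of each shown so that the probes can be told apart.
OAS1X, chr17:63654733-63654792: ttagatactggctgagctattcatgctgta
OAS1Z, first probe, chr17:63654528-63654587: aattatacctgtgtctgccccagaatgaat
OAS1Z, second probe, chr17:63670269-63670328: tgattctcattgtaatacattgagacatgg
OAS1Y, chr17:63638323-63638382: atcccagccttgactttcttctgtgaacct
The first OAS1Z probe lies 145 bases from the OAS1X probe, whereas the second lies 15476 bases away, so the copy that the first one reads is uncertain. No run of more than 6 bases of the OAS1X probe recurs in any of the other 3 probes.

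The first OAS1Z probe read -1.29, -1.26, -1.24 and -1.07 in HF and 0.29, -0.26, 1.25 and 0.21 in PR. HF animal 4 did not stand apart at this probe, and the groups did not overlap. The difference was -1.59 ± 0.35 (limma adjusted p = 0.0287), and -0.81 within slide I. The second OAS1Z probe differed by -0.96 and the OAS1Y probe by -0.81, and neither passed (limma adjusted p = 0.151 and 0.336). The OAS1Y probe read -1.93, -1.72, -1.80 and -1.87 in HF and -1.48, -1.76, 0.35 and -1.18 in PR, so PR animal 3 stood apart from its breed.

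The difference did not extend over the interferon-stimulated genes as a list. The mean of these genes was -0.47, -0.40, -0.35 and -0.43 in HF animals 1 to 4. In PR animals 1 to 4 it was -0.54, -0.43, 0.24 and -0.30, so PR animal 3 stood above all others. Of 59 such genes tested, only OAS1X and OAS1Z were called, both lower in HF. Of all 13814 named genes, 3.34% were called at their brightest probe. The OAS1Z call was at its first probe, for which the copy read is uncertain. The list's median difference was -0.04, against 0.03 over all named genes, and 27 of 59 were higher in HF; the median was -0.15 without PR animal 1 and 0.29 with median centring in place of loess. ISG15, a ubiquitin-like antiviral protein, differed by -0.56 (limma adjusted p = 0.590), RSAD2 by -0.36 (0.540), OAS2 by -0.23 (0.590) and MX1 by 0.01 (0.991). LGALS9, which encodes galectin-9, differed by -0.45 and did not pass (limma adjusted p = 0.0764).

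**Figure D1:**
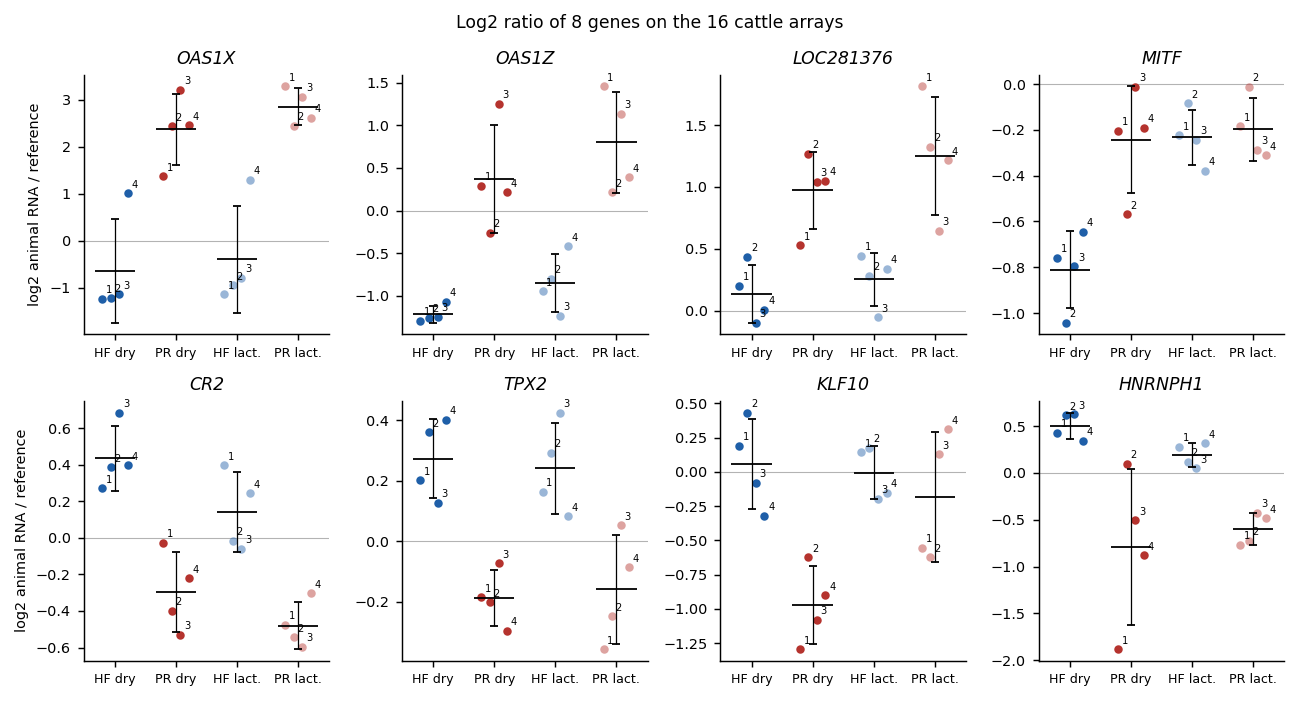
Log2 ratio of animal RNA to the common reference for 8 genes on the 16 cattle arrays; points are animals with their numbers, lines are group means and bars 1 SD (n = 4), and lactation points are paler. OAS1X is high in every PR animal in both states, with HF animal 4 at 1.02 and 1.30 apart from its breed, while the PR dry values of HNRNPH1 run from -1.88 to 0.10.

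Other genes lower in HF followed at smaller sizes. LOC281376, annotated on the array as the protease inhibitor SERPINB2, read 0.20, 0.44, -0.10 and 0.01 in HF and 0.53, 1.27, 1.04 and 1.05 in PR. No HF value reached the PR range. The difference was -0.83 ± 0.20 (limma adjusted p = 0.0363) and -1.26 within slide I, at 1 of 2 probes for the gene; the other probe differed by -0.34 and did not pass. TPM4, a tropomyosin that binds actin filaments, was lower at 2 of its 5 probes, by -0.77 ± 0.14 at the one with the lowest p (limma adjusted p = 0.0188), with HF at -0.39, -0.84, -0.71 and -0.72 and PR at 0.18, -0.27, 0.05 and 0.46. CD300H, an immune receptor of the CD300 family, was lower by -0.79, although HF animal 4 at -0.21 lay near PR animals 2 and 3 at -0.02 and -0.11.

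Further genes of the lower set were called at 1 probe each. CTBP2, a corepressor, was lower by -0.72, KLF6, a zinc finger factor, by -0.66, and RBPJ, the DNA-binding partner of Notch, by -0.56. GADD45B, a stress-response gene, was lower by -0.57 and APAF1, the scaffold of the apoptosome, by -0.54. The other GADD45B probe differed by 0.27. MFSD1, a lysosomal transporter, was lower by -0.54, though its other probe differed by 0.41. CAP1, an actin regulator, was called at -0.57 at 1 of 3 probes while the median of its probes was 0.08.

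MITF is the master regulator of pigment cells and also acts in mast cells and osteoclasts, and it was the 1 coat colour gene of 15 tested that was called, where 3.34% of all named genes were. It read -0.76, -1.04, -0.80 and -0.64 in HF and -0.20, -0.57, -0.01 and -0.19 in PR. PR animal 2 lay near the HF range. The difference was -0.57 ± 0.13 (limma adjusted p = 0.0303) but -0.08 within slide I, and -0.03 at lactation; the change of the breed difference between states had an unadjusted p of 0.00842 and an adjusted p of 1.00. The median of the coat colour list was 0.01. KIT and MC1R, the stem cell factor and melanocortin receptors, differed by 0.01 and -0.04 and were not called. The MITF call was lost with median centring (-0.30, limma adjusted p = 0.215) and with slide as a fixed term (-0.23). It was lost as well without HF animal 2 or 3 or PR animal 1, 3 or 4 (limma adjusted p = 0.124, 0.0748, 0.0636, 0.0738 and 0.0798).

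The lowest p of all probes was at POLR3A, the largest subunit of RNA polymerase III, which makes transfer RNA and 5S ribosomal RNA. It is named after its values were seen, as are LBH and TPRG1L. LBH was among the called probes whose within-slide difference was at least as large as the fitted one, so its within-slide value is no separate support. POLR3A read 0.23, 0.35, 0.37 and 0.70 in HF and -0.58, -0.39, -0.49 and -0.71 in PR, with the breeds well apart. The difference was 0.95 ± 0.13 (limma adjusted p = 0.00772), 1.09 within slide I and 0.52 at lactation, at 1 of 5 probes. It was the 1 probe called without HF animal 2 and without HF animal 3, and with 1 unnamed probe it was called without PR animal 4. MORN4 differed by 1.06 with 1.26 within slide I, at 1 of 2 probes, the other differing by -0.01. LBH, a transcription cofactor, differed by 1.00 with 1.19 within slide I, at 1 of 4 probes. The lowest LBH probe differed by -0.52, and the median of its probes was 0.31. TPRG1L, a presynaptic protein, did not pass in the comparison itself (1.30 ± 0.38, limma adjusted p = 0.0621), and it was 1 of the 2 probes called when slide was a fixed term (1.71, adjusted p = 0.028), the other having no gene name. It read 0.76, 0.93, -1.11 and 0.82 in HF and -1.13, -0.96, -0.92 and -0.78 in PR, so HF animal 3 lay with the PR animals.

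CR2, the complement receptor CD21 of B cells, was higher in HF. It read 0.27, 0.39, 0.68 and 0.40 in HF and -0.03, -0.40, -0.53 and -0.22 in PR. The difference was 0.73 ± 0.14 (limma adjusted p = 0.0234), 0.80 within slide I and 0.62 at lactation, at the last of its 4 probes, the others differing by 0.12 to 0.34 and not passing. Of 20 B cell genes tested CR2 alone was called, against 3.34% of all named genes, 15 were higher in HF, against 54.9%, and the median was 0.25. BANK1 and MS4A1, a B cell scaffold protein and the antigen CD20, differed by 0.64 and 0.57 and did not pass (limma adjusted p = 0.116 and 0.119). In PR animal 1 they read -1.08 and -1.12, while the other 3 PR animals lay between 0.11 and 0.29. Without PR animal 1 the median of the B cell list was 0.07.

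Cell division genes gave the broadest set of calls among the lists. Of 53 cell cycle and mitosis genes tested at their brightest probe, 44 were higher in HF (83.0%, against 54.9% of all named genes), with a median of 0.23 against 0.03. Of the 53, 8 were called, all higher (15.1%, against 3.13% of all named genes called higher), and 14 had groups that did not overlap, as did 10.5% of all named genes. Within slide I, 43 of the 53 were higher in HF animal 4, with a median of 0.25, where 50.4% of all named genes were higher and their median was 0.00. At peak lactation 39 were higher, with a median of 0.13. The mean over the list was 0.09, 0.17, 0.03 and 0.10 in HF animals 1 to 4 and -0.24, -0.16, -0.03 and -0.20 in PR animals 1 to 4. The breeds did not overlap in this mean, and PR animal 2 lay with its own breed. The nearest values were 0.03 in HF animal 3 and -0.03 in PR animal 3. The means of the fatty acid oxidation, cholesterol and circadian lists did not overlap either. Within slide I, 23 of 25 class I and loading genes and 16 of 20 B cell genes were also higher in HF animal 4.

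Among the 8 called, TPX2 and CENPE act on the mitotic spindle. TPX2, the activator of Aurora A, read 0.20, 0.36, 0.13 and 0.40 in HF and -0.19, -0.20, -0.07 and -0.30 in PR, a difference of 0.46 ± 0.10 (limma adjusted p = 0.0282), with 0.60 within slide I. CENPE, a kinetochore motor, differed by 0.41 with 0.47 within slide I. ZWINT, a kinetochore protein, differed by 0.64 and PLK4, which starts centriole duplication, by 0.40. MCM4, part of the replicative helicase, differed by 0.56, and RRM1, the large subunit of ribonucleotide reductase, by 0.50 and 0.56 at its 2 probes, both called. TYMS, which makes thymidylate, differed by 0.77 and PCNA, the sliding clamp of DNA polymerase, by 0.68, but within slide I they differed by 0.11 and -0.06. TPX2 was called at 1 of 4 probes (median of its probes 0.12, lowest -0.03) and PLK4 at 1 of 3 (0.04, lowest -0.03). ZWINT and CENPE were each called at 1 of 2 probes, the other differing by 0.09 and 0.22. MCM4 was called at 2 of 5 probes (lowest 0.00), PCNA at 1 of 3 (lowest 0.11) and TYMS at its 1 probe.

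Members that were not called include UBE2C at 0.44, CCNB1 at 0.44 and CDC20 at 0.25, with 0.79, 0.65 and 0.82 within slide I. AURKB, the kinase of the chromosomal passenger complex, differed by -0.20 at its brightest probe and by 0.51 (limma adjusted p = 0.0287) at the other. GTSE1, SPAG5, PRC1 and ESPL1, which act in mitosis and were no members of the list, were called at 0.59, 0.56, 0.52 and 0.50. Within slide I they differed by 0.62, 0.75, 0.62 and 0.63. They are named after their values were seen, from called probes whose within-slide difference was at least as large as the fitted one. Their within-slide values are therefore no separate support. GTSE1, SPAG5, PRC1 and ESPL1 were each called at 1 probe, and their lowest probes differed by 0.04, -0.02, 0.01 and 0.30. For the 36 members with several probes the median was 0.06 at the probe nearest the transcript's start and 0.40 at the one nearest its end, where all named genes with several probes had -0.05 and 0.14. Without PR animal 1 the list's median was 0.24. With limma none of its 53 genes passed without any 1 of HF animals 2, 3 and 4 or PR animals 1, 3 and 4 (17, 24, 22, 26, 25 and 19 had an unadjusted p under 0.05), while 2 passed without HF animal 1 and 12 without PR animal 2. Of all 32926 probes tested, 4976, 6182, 6563, 5925, 6149 and 6159 had an unadjusted p under 0.05 in the same order. B cell and plasma cell genes moved with this list within slide I, with medians of 0.32 and 0.65, and their part in it was not tested.

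**Figure D2:**
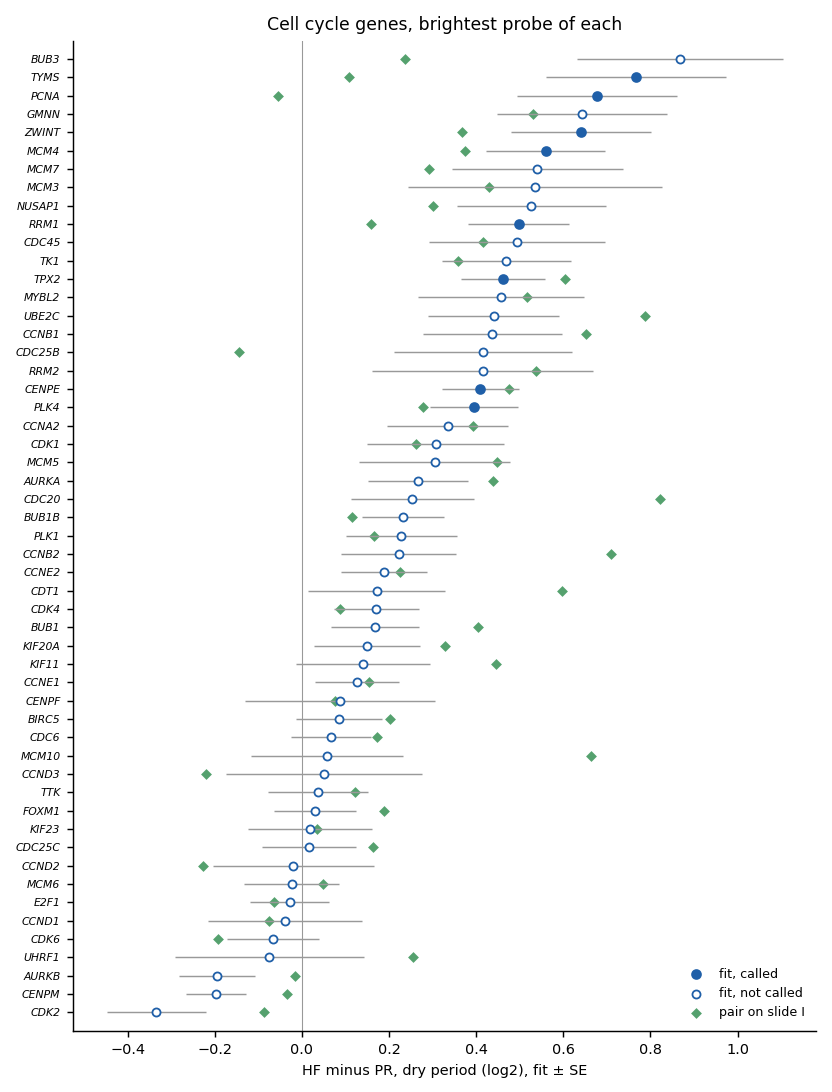
Difference between HF and PR in the dry period for 53 cell cycle genes, each at its brightest probe, as the fitted log2 difference ± SE (circles) and as HF animal 4 minus PR animal 2 on slide I (diamonds). In the fit 44 of the 53 lie above 0, and 43 of the 53 diamonds do.

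The widest differences among the higher probes were at other genes. HNRNPH1, which binds G-rich RNA in splicing, read 0.43, 0.62, 0.63 and 0.35 in HF and -1.88, 0.10, -0.51 and -0.88 in PR. PR animal 1 was far below and PR animal 2 close to the HF range. The difference was 1.30 ± 0.26 (limma adjusted p = 0.0255), but 0.25 within slide I and 0.93 without PR animal 1. The same order of the PR animals held in OGT, the enzyme that adds N-acetylglucosamine to proteins, with -2.10, -0.43, -0.75 and -0.86 in PR and 0.03, 0.24, 0.41 and -0.10 in HF. It held as well in SF3B1, a core protein of the U2 particle of the spliceosome, with -1.88, 0.07, -0.48 and -0.67 in PR and 0.24, 0.41, 0.52 and 0.14 in HF.

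Further members of this set were ZC3H7A at 1.17, RBM5, a splicing regulator, at 1.13, LSM5, a ring protein of U6 RNA, at 1.11, TUBGCP5, of the ring that nucleates microtubules, at 1.08, DDX5, an RNA helicase, at 1.07, and DHX15, the helicase that takes spliceosomes apart, at 1.02. Within slide I these 6 differed by 0.04, 0.17, 0.40, 0.53, 0.16 and 0.05. SYTL2, which tethers secretory vesicles, differed by 1.04 and RESF1 by 1.07. No list of splicing genes was tested, so no statement is made about that group.

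The difference within these genes depended on where in the transcript the probe lay. The 6 HNRNPH1 probes, in the order of their start in the transcript, differed by -0.09, 0.29, 0.28, 0.44, 1.30 and 1.33. The 4 DDX5 probes differed by -0.17, 0.03, -0.05 and 1.07, and the 3 OGT probes by -0.12, 0.79 and 1.18. In SF3B1 the order was not so simple, with -0.11, -0.21, -0.16, 0.51, 1.07, -0.19, 0.47 and 1.03 over its 8 probes. In TPM4, of the lower set, the difference also rose along the transcript, from -0.77 and -0.62 at its first 2 probes to -0.17, -0.17 and -0.16 at the next 3, so that the called probes were the first.

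The pattern held over all transcripts with 3 or more probes tested, counting only those whose first and last probes began well apart. Of 2318 such transcripts, the last probe was above the first in 1980 (85.4%), with a median difference of 0.21 at the last probe and -0.10 at the first. In the 209 with a probe called higher, the last probe was among those called in 182 and the first in 1; in the 35 with a probe called lower, the first was called in 21 and the last in 1. At peak lactation the medians over the 2318 were 0.09 and -0.07. MINA, a ribosomal oxygenase also named RIOX2, was the 1 gene with 3 or more probes at which every probe was called (0.40 to 0.57). Its 3 probes begin at bases 1693, 1740 and 1755 of the transcript, too close together to be among the 2318.

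The same measure on single arrays separated the breeds apart from PR animal 2. The median log2 ratio at the last probe minus that at the first was 0.09, 0.18, 0.16 and 0.16 in HF animals 1 to 4 and -0.42, 0.11, -0.16 and -0.16 in PR animals 1 to 4. In the Cy5 channel alone it was 1.80, 1.89, 1.83 and 1.89 in HF and 0.36, 1.75, 1.46 and 1.52 in PR, and in the Cy3 reference channel it was 1.36 to 1.40 in HF and 0.78, 1.38, 1.39 and 1.5 in PR. At peak lactation it was 0.08 to 0.14 in HF and -0.08 to -0.05 in PR. The probes called higher also had less G and C, with a median of 36.7% against 45% of probes not called, and began later in the transcript, at base 2260 against 1255. The part of probe position and base composition in the calls was not tested.

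The median of the 764 higher probes on each array was 0.26, 0.44, 0.35 and 0.27 in HF animals 1 to 4 and -0.69, 0.10, -0.26 and -0.31 in PR animals 1 to 4. PR animal 2, on the HF slide, was the 1 PR animal above 0. Within slide I, whose 2 arrays are also in the fit, 673 of the 764 higher probes and 97 of the 98 lower probes kept their sign, as did 19473 of the 32064 probes not called, with medians of 0.17 and -0.31 against the 0.64 and -0.48 of the fit. The within-slide difference was as large as the fitted one at 35 higher and 11 lower probes. With slide as a fixed term 2 probes were called, neither of them among the 862, and with scan batch as a fixed term 0 (475 at an unadjusted p under 0.05). Breed and slide cannot be told apart outside slide I.

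**Figure D3:**
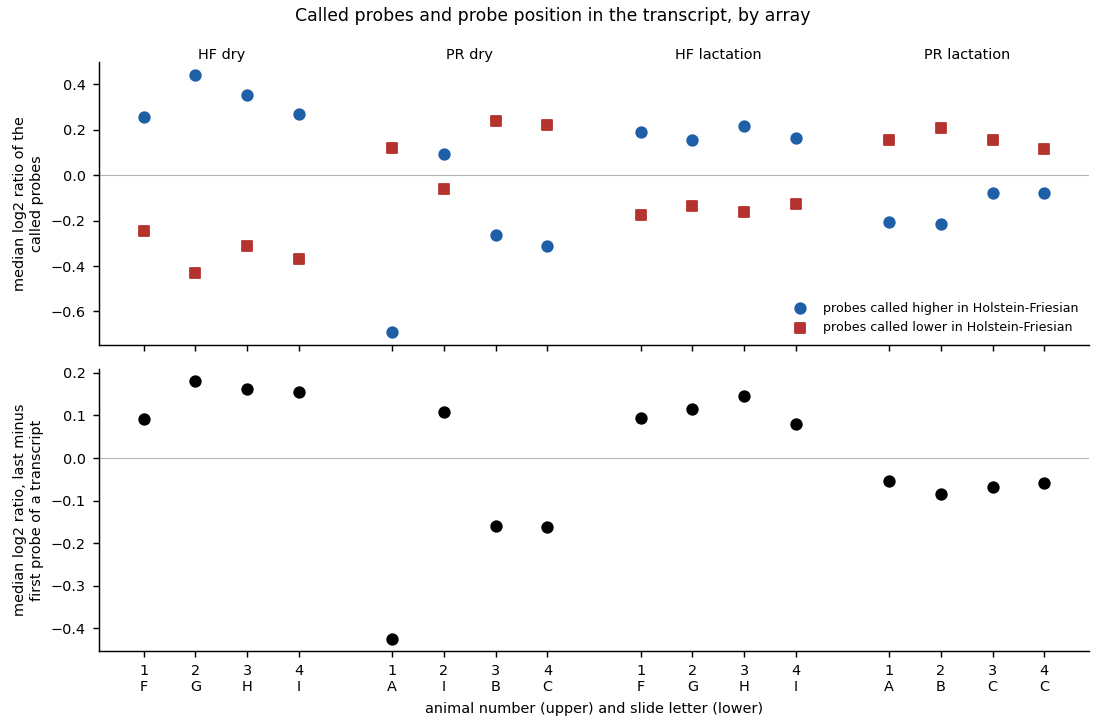
For each of the 16 cattle arrays, the median log2 ratio of the probes called higher and lower in HF in the dry period (upper) and the median log2 ratio at the last minus the first probe of a transcript with 3 or more probes (lower); animal numbers and slide letters are under the axis. PR dry animal 2 on slide I lies with the HF arrays at 0.11 in the lower plot, and PR dry animal 1 at -0.42 is the lowest.

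**Figure D4:**
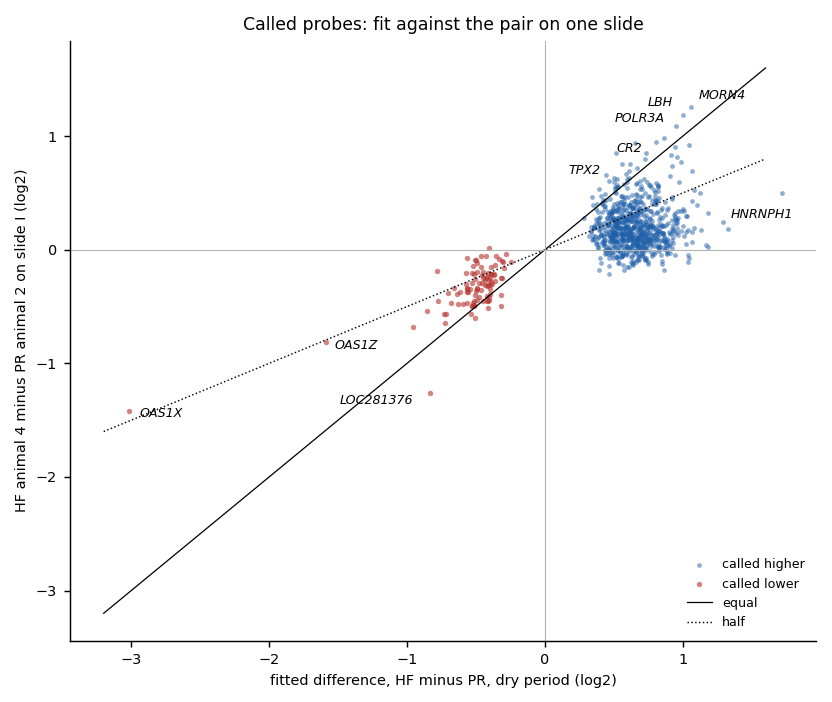
The 862 called probes by their fitted difference between HF and PR in the dry period (horizontal, log2) and the difference between HF animal 4 and PR animal 2 on slide I (vertical, log2); the solid line marks equal values and the dotted line a slope of 0.5. Most higher probes lie under the dotted line, with MORN4, LBH, POLR3A, CR2 and TPX2 above the solid one.

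Energy and ribosomal lists were mostly higher in HF in the fit, where 54.9% of all named genes were and 3.34% were called. An unadjusted p under 0.05 was found at 3439 of the 13814 named genes. Respiratory complex I genes, which pass electrons from NADH into the mitochondrial chain, were higher in HF in 35 of 38, with a median of 0.42 and none called (21 at an unadjusted p under 0.05); 31 of 38 were higher without PR animal 1, with a median of 0.16. Genes of complexes II to V were higher in 41 of 44, with a median of 0.43 and 2 called, SDHD at 0.68 and COX6A1 at 0.80. The other SDHD probe differed by -0.26. Cytosolic ribosomal protein genes were higher in 69 of 79, with a median of 0.36 and RPS26 called at 0.44; some ribosomal probes may read processed copies of these genes. Mitochondrial ribosomal protein genes were higher in 62 of 77, with MRPS31, MRPS27 and MRPL20 called at 0.61, 0.71 and 0.52. The other MRPS27 probe differed by -0.03.

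These 4 lists shrank within slide I, to medians of 0.07, 0.11, -0.02 and 0.00, and at lactation, to 0.02, 0.06, -0.08 and 0.05. The mean of the complex II to V genes was 0.05, 0.20, 0.01 and 0.15 in HF animals 1 to 4 and -1.14, 0.05, -0.22 and -0.13 in PR animals 1 to 4, so that PR animal 1 lay far below all others and PR animal 2 within the HF range. For the cytosolic ribosomal genes the mean was 0.13, 0.44, 0.03 and 0.15 in HF and -0.62, 0.17, -0.21 and -0.03 in PR. Without PR animal 1 the 4 medians were 0.16, 0.19, 0.20 and 0.15.

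Chaperone and proteasome genes had a like pattern, where 54.9% of all named genes were higher in HF and 3.34% were called. Of 34 heat shock and chaperone genes 23 were higher, with a median of 0.32 (0.11 without PR animal 1, 0.03 within slide I). HSPA5 and HSPD1, chaperones of the endoplasmic reticulum and the mitochondrion, were called at 0.95 and 0.85. Within slide I they differed by 0.23 and 0.15. HSPA5 was called at 2 of 4 probes, and its lowest probe differed by -0.20. Of 37 proteasome genes 34 were higher, with a median of 0.24 (0.12 without PR animal 1, 0.03 within slide I) and 1 called, PSMD10 at 0.50 with 0.40 within slide I. In the glycolysis list PDK1, which restrains pyruvate oxidation in the mitochondrion, was called at 1.04 with -0.10 within slide I. That list's median was 0.07, or -0.06 without PR animal 1. In the antioxidant list GSTK1 was called at 0.60, with a list median of 0.09, or -0.03 without PR animal 1.

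Lipid genes were called in both directions, where 3.34% of all named genes were called and 54.9% were higher in HF. ELOVL5 and ACLY, which elongate fatty acids and make cytosolic acetyl-CoA, were the 2 called of 27 lipogenesis genes, at 0.96 and 0.85. Within slide I they differed by 0.19 and 0.21. ACLY was called at 2 of 4 probes, and its lowest probe differed by -0.27. The list's median was 0.03, or -0.08 without PR animal 1. SLC25A20, the mitochondrial carnitine carrier, was the 1 called of 40 fatty acid oxidation genes, at 0.57, with HF at -0.27, 0.04, -0.01 and -0.20 and PR at -0.85, -0.50, -0.76 and -0.60. At lactation it differed by -0.33; the change between states had an unadjusted p of 0.000321 and a limma adjusted p of 1.00. NR1H3, the oxysterol receptor LXR alpha, was lower in HF by -0.51 (limma adjusted p = 0.0464) and counted under both the cholesterol and the monocyte lists, while the cholesterol list had 27 of 36 genes higher and a median of 0.26, which was 0.07 without PR animal 1 and 0.04 within slide I. SQLE, squalene epoxidase, differed by 0.70 and did not pass (limma adjusted p = 0.0669).

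Among antigen presentation genes, 21 of 25 of class I and loading were higher in HF, with a median of 0.30, 0.18 within slide I, 0.24 at lactation and 0.12 without PR animal 1. FCGRT, the neonatal Fc receptor that moves IgG, was called at 0.85 ± 0.19 (limma adjusted p = 0.0287), with HF at -0.67, -0.18, -0.47 and -0.69 and PR at -1.86, -1.06, -1.40 and -1.09. The breeds lay apart, and within slide I the difference was 0.37, but at lactation it was -0.07. FCGRT and CR2 were also the 2 called of 34 complement and Fc receptor genes, against 3.34% of all named genes, and that list's median was 0.00. Of 22 class II genes 19 were higher, with a median of 0.21 (0.11 without PR animal 1), and RFX5, a factor that binds class II promoters, was called at 0.63. For both lists, the share of all named genes higher in HF was 54.9% and the share called 3.34%.

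The other cell type lists gave no call apart from NR1H3 and CR2. Their medians were -0.12 for 27 neutrophil genes, 0.02 for 24 monocyte genes, 0.13 for 30 T cell genes, -0.02 for 7 gamma delta T cell genes, 0.19 for 8 plasma cell genes, 0.12 for 26 NK and cytotoxic genes, -0.13 for 20 platelet genes, -0.09 for 30 red cell genes and -0.06 for 12 genes of mast cells, basophils and eosinophils. At most 5 genes of any of them, apart from 8 of the monocyte list, had an unadjusted p under 0.05, against 3439 of all 13814 named genes. Without PR animal 1 the medians of neutrophil, monocyte, T cell, plasma cell, NK and red cell genes were -0.34, -0.09, -0.00, 0.03, 0.06 and -0.19. Within slide I the T cell median was -0.22, and with median centring in place of loess the neutrophil median was 0.15. The array means of each of these lists overlapped between the breeds. VCAN and CCR2, a matrix proteoglycan and a chemokine receptor of monocytes, differed by -0.90 and -0.42 without overlap of the breeds and did not pass (limma adjusted p = 0.0839 and 0.0634). JCHAIN, which joins polymeric antibodies, differed by 1.16 and did not pass (0.163), with PR animal 1 at -3.02.

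Of 30 immediate early genes KLF10, a zinc finger factor induced by TGF-beta, was called at 1.03 (list median 0.16, or 0.02 without PR animal 1), with HF at 0.19, 0.43, -0.08 and -0.32 and PR at -1.29, -0.62, -1.08 and -0.90. Its relative KLF11 was called at 1.06 at 1 of 3 probes and differed by -0.40 at lactation (change between states, unadjusted p = 0.000237, limma adjusted p = 1.00). In the circadian list of 19, BHLHE40 and CRY1 were called at 0.83 and 0.56, with 0.00 and -0.05 within slide I. In the iron list of 18, IREB2 was called at 0.43, with -0.04 within slide I. Of 33 vesicle and adhesion genes, VAMP7 was lower by -0.41, with -0.42 within slide I and -0.51 at lactation, and VAMP1 was higher by 0.41. The share called over all named genes, to be set beside the calls in these lists, was 3.34%.

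No gene was called by limma in 7 further lists, where 3.34% of all named genes were called. Their counts at an unadjusted p under 0.05 were 9, 5, 2, 2, 5, 3 and 3 genes, against 3439 of all 13814 named genes. In the same order, their medians were 0.01 for 53 cytokine, chemokine and NF-kappaB genes, -0.05 for 43 pattern recognition genes, -0.18 for 28 acute phase and antimicrobial peptide genes, 0.06 for 25 glucocorticoid response genes, -0.08 for 25 genes of the prolactin, growth hormone and IGF axis, -0.10 for 11 milk genes and -0.02 for 16 vitamin D and calcium genes.

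**Figure D5:**
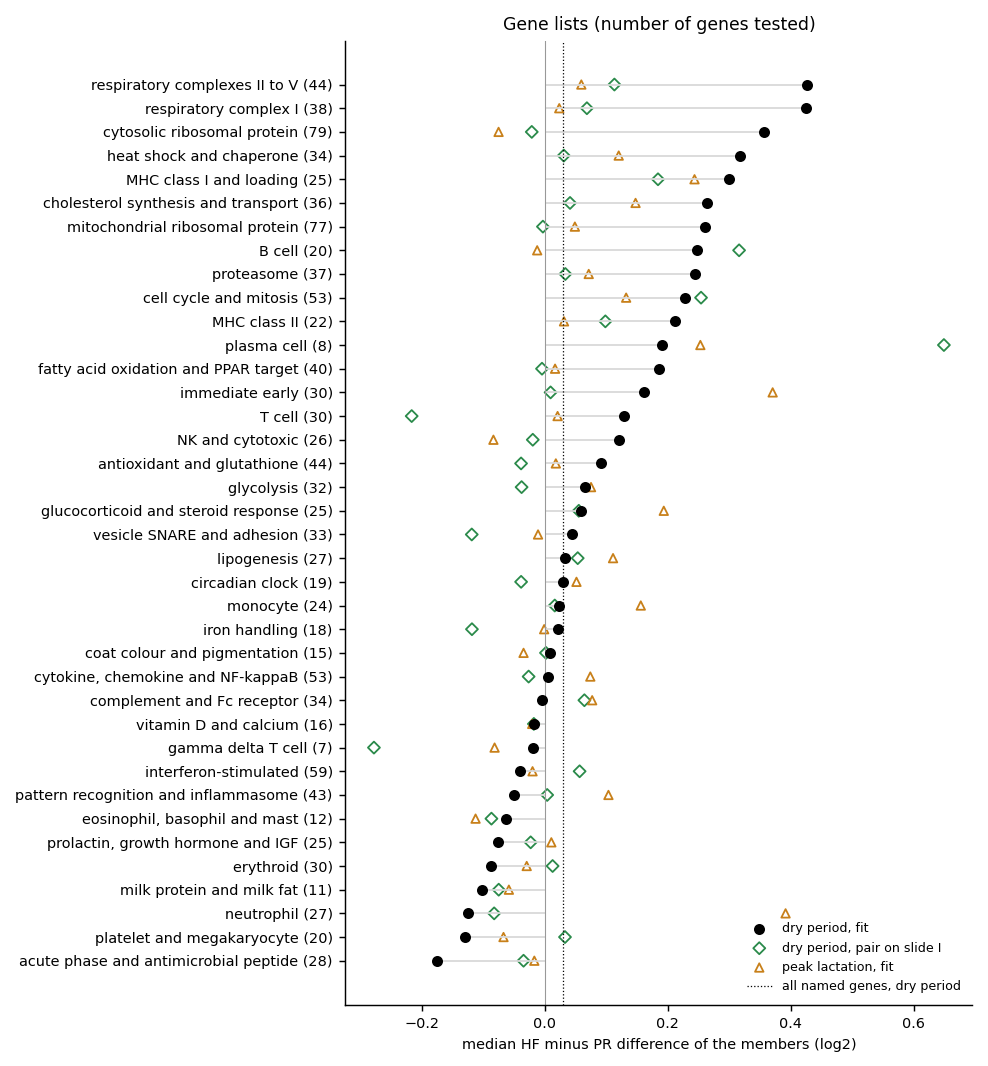
Median HF minus PR difference (log2) over the members of each of 38 gene lists in the dry period (filled circles), in the pair on slide I (diamonds) and at peak lactation (triangles), with the number of genes tested in brackets and the median of all named genes as a dotted line. The respiratory and ribosomal lists lie at 0.26 to 0.43 in the fit and at -0.02 to 0.11 on slide I, while cell cycle genes lie at 0.23 and 0.25.

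The dry-period difference was set beside the one at peak lactation, with the same probes and the same fit. At lactation 0 probes passed (4693 at an unadjusted p under 0.05, lowest limma adjusted p 0.0518), and 0 passed for the change of the breed difference between states (973 at an unadjusted p under 0.05). Of the 764 higher and 98 lower probes, 751 and 93 had the same sign at lactation, as did 22162 of the 32064 probes not called, with medians of 0.34 and -0.34. The lactation arrays come from the same animals as the dry-period arrays. They lay on slides F, G, H and I for HF and A, B and C for PR, which also held dry-period arrays of the same breed. No slide held lactation arrays of both breeds, so breed and slide cannot be told apart at lactation. No gene was above background only in HF, a result all but fixed in advance. PR animal 1 had 43635 of the 43653 probes above background, so hardly any gene could be absent from all PR arrays. At 19 genes Cy5 was above background on at least 3 PR dry arrays and on no HF dry array. PR animal 1 counts towards those 3 arrays at nearly every probe, so the counts of the 2 breeds cannot be compared. The log2 ratios of the 5 of these with the brightest PR signal over the HF floor differed by -0.10 to -0.31, and none passed (limma adjusted p = 0.0576 to 0.534).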

How the data were processed

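The deposited scanner files give, per the file headers, Cy5 and Cy3 mean and background intensity values for each spot and the authors' log10 ratio; the labels' processing notes name Agilent Feature Extraction 10.7.3.1 and the headers 10.10.1.1. In R 4.3.3 with limma 3.58.1, background was removed by normexp (offset 50), each array was normalized by loess, with control and outlier spots given no weight, and spots of a probe were averaged as log2 Cy5/Cy3. A linear model of 6 group means over all 24 arrays gave the HF minus PR contrast in the dry period, with Benjamini-Hochberg adjustment over the 32926 probes tested and a threshold of 0.05. Genes were named through RefSeq accessions of the ARS-UCD2.0 table, which gave names only; a list's gene was read at its brightest probe. Genes above background in 1 breed only were ranked by their Cy5 signal, after Aquantile, over the other breed's floor, each array's lowest well-above-background signal. The number of arrays limits the precision. The subject numbers mark different animals in the breeds and pair no samples. Named genes were the 15 largest non-overlapping calls in each direction, the 3 lowest p in each of 38 lists, up to 5 genes above background in 1 breed only, genes called at every one of 3 or more probes, and called coat colour genes. The members and lists were chosen with earlier results of these data known. The fit was tested on simulated data. The authors' deposited value table was not used here.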

Additional observations from a re-analysis of the deposited data

Results flagged for a closer look

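In groups of 4 animals, 1 animal stood apart from the other 3 by more than 0.829 of its group's range in 18 of 274 groups, 6.57%, where chance marks about 5%. PR animal 1 was the lowest of its breed in 7 of the 18: BANK1 at -1.08, MS4A1 at -1.12, GSTK1 at -0.56, TXNRD1, a thioredoxin reductase, at -0.87, MRPS27 at -1.20, COX6A1 at -1.62, and ATP2A3, a calcium pump, at -0.60. HF animal 4 was the highest of its breed at OAS1X with 1.02 and at CD300H with -0.21, and the lowest at TXNRD1 with -0.015.

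HF animal 2 was the highest of its breed at KLRC1, an NK cell receptor, with 1.31, at MRPL20 with 0.43 and at PSMD14, a proteasome subunit, with 0.55. HF animal 1 was the highest at SERPINA1, an antiprotease, with -0.0046, and HF animal 3 at PFKFB4, a regulator of glycolysis, with -0.27. PR animal 2 was the lowest at CD4, the helper T cell coreceptor, with -0.018 and at EPOR, the erythropoietin receptor, with 0.038. PR animal 4 was the highest at ELANE, neutrophil elastase, with 0.73.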

How the results depend on the processing

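Beside the 862 probes called, limma called 0 from the 8 dry-period arrays alone, 0 with the subject number as a replicate block (5940 at an unadjusted p under 0.05), 389 from the 16 cattle arrays, 2 with slide and 0 with scan batch as a fixed term, and 5639 with array weights, of which 57.3% were higher in HF against 88.6%. It called 1603 with no background correction, 5998 with median centring, which moved the median of all probes by 0.142, and 0 from Cy5 alone, which moved it by 0.133 (7342 at an unadjusted p under 0.05). It called 0 without HF animals 2 and 3 (3276 unadjusted) and 0 when PR animal 1 was left out as well (2710). Leaving out 1 animal gave 1 to 4187 calls. Analysis of variance with Tukey's test, unadjusted across probes, gave 1758. Chosen after seeing the data, leaving out both arrays of slide I gave 3403 and Cy3, the reference, alone gave 0 (2925 unadjusted). Animal or slide as a random block, array position, the scanner's log ratio, Aquantile, trend and robust estimates and both other filters gave 585 to 1252. The change between states had 0 calls in every setting that could give it.

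Of the 57 called genes among those named by rule, 6 changed sign in some setting. With the median over a gene's probes DDX5 was -0.012 and CAP1 0.078. With slide or scan batch as a fixed term CRY1 was -0.034 and MRPL20 -0.076. Within slide I CRY1 was -0.053, PDK1 -0.10, IREB2 -0.035 and MRPL20 -0.051. The cause was not tested. Of 1709 values of these 57 genes, 826 kept side and direction and 811 kept direction but did not pass. The replicate numbers were shared by different animals: correlations of same-numbered deviations were 0.05, 0.24, 0.03 and 0.06, and only subjects 2 and 4 correlated best with their own number. The number of animals and signal near background limit all of this.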

Other observations

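Genes near a call outside the called sets lay in several groups. STEAP4, a metalloreductase of the iron list, differed by -0.96 (limma adjusted p = 0.0621). In the milk list, XDH, which takes part in milk fat secretion, differed by 0.64 (0.0677) and by 0.80 at lactation, and CSN2, beta-casein, by -0.47 (0.078). PLIN2, a lipid droplet protein, differed by -0.54 (0.101) in the dry period and by 0.04 at lactation. In the coat colour list DCT, an enzyme of melanin synthesis, differed by -0.51 (0.132) and LYST, which governs lysosome size, by -0.49 (0.185). None of these passed.

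Some lists had other medians at lactation than in the dry period, a change that was not tested. The neutrophil median was -0.12 in the dry period and 0.39 at lactation, and that of immediate early genes 0.16 and 0.37. Of the latter, 28 of 30 were higher in HF at lactation, against 49.3% of all named genes. Of the genes above background only in PR, the log2 ratio of PTPRO, a receptor phosphatase, differed by -0.13, LOC100847494 by -0.30, EFHD1, a mitochondrial calcium-binding protein, by -0.31, SAMD4B, an RNA-binding protein, by -0.10 and SLC10A2, a bile acid transporter, by -0.11. PR animal 1 had 43635 probes above background against at most 34015 on each of the other 7 arrays.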
